A study of Bos taurus with 15 samples.

Results

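The genes described here encode the extracellular matrix and the receptors that bind it: collagens, laminins, matrix glycoproteins and proteoglycans, matrix metalloproteinases (MMPs), their tissue inhibitors (TIMPs), integrins, and the intermediate filament protein vimentin. Membership follows from the gene symbol in the platform's annotation: COL, MMP or TIMP followed by a digit, LAMA, LAMB, LAMC, THBS, FBLN, FBN, ITGA or ITGB at the start, or one of FN1, LUM, DCN, BGN, SPARC, NID1 and VIM. The rule gave 80 genes of the 9155 that had a symbol, covered by 152 of 24016 probe sets, and each gene was followed on the probe set with the highest mean over all arrays. Of the 80, 23 were collagens, 5 laminin chains, 10 glycoproteins, 3 proteoglycans, 11 MMPs, 4 TIMPs and 19 integrin subunits, with vimentin as 1 more. The last 4 matched the rule by name only: ITGB1BP1, ITGB1BP2 and ITGB3BP encode proteins named for binding an integrin, and ITGBL1 a protein named for its likeness to integrin beta chains.

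The signals came from 15 Affymetrix Bovine Genome arrays hybridized with amplified total RNA of cattle (Bos taurus). Oocytes, morulae and blastocysts had 3 arrays each, 1-cell embryos had 2, and the 2-cell, 4-cell, 8-cell and 16-cell stages had 1 each. All embryos were made in vitro and none received a further treatment: oocytes were drawn from ovarian follicles with their cumulus cells, matured, fertilized with live sperm, and freed of cumulus cells by vortexing after fertilization. The labels call the replicates biological, and they give neither the number of oocytes or embryos behind an array nor whether the oocyte samples had been matured or freed of cumulus cells.

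A matrix is built outside the cell. Collagen IV forms a network with laminins, which are trimers of an alpha, a beta and a gamma chain, and nidogen links the networks into a basement membrane, the sheet on which epithelia rest. Fibrillar collagens, fibronectin, fibrillins and thrombospondins make up looser connective tissue, MMPs cut these proteins and TIMPs block the MMPs. Cells hold the matrix through integrins, each a pair of 1 alpha and 1 beta chain. In the mammalian blastocyst the outer epithelium (trophectoderm) and the hypoblast are the cells that lay down and rest on basement membranes.

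Array means ran from 558 on the 8-cell array to 717 on the 16-cell array, and array medians from 39.7 to 61.7. Labelling spike-in transcripts gave signal on 9 arrays (oocyte 2 and 3, 1-cell 2, morula 3, blastocyst 3 and the 4 single arrays) and were near background on the other 6, and the middle probe set of GAPDH relative to its 3' one, which falls where RNA is shorter, was 0.0374 to 0.237 on oocyte, 0.1001 to 0.625 on morula and 0.339 to 0.643 on blastocyst arrays. This ratio was 0.0571 on the 8-cell array and 0.134 on the 16-cell array. All 8 measured oocyte markers fell from oocyte to morula and 4 of 6 trophectoderm markers rose, with the other 2 passing in the blastocyst. No signal is a detection call here, and every change is a difference of log2(signal + 16). Levels of different genes are compared only by whether signals stay under 100 or reach 1000. Probe sets of the same gene can differ in this too. In whole embryos, fewer cells of a type and less RNA per cell cannot be told apart.

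Many of the 80 genes gave little signal. On every array, 33 (41.2%) stayed under a signal of 100, against 20.8% of all 9155 genes, and 22 (27.5%) reached 1000 on some array, against 50.3%. Among the 33 were 10 of the 11 MMPs, 9 of the 19 integrin subunits and 9 of the 23 collagens. COL1A1 and COL3A1, the major collagens of connective tissue, ran from 1.00 to 18.9 and from 1.36 to 84.8 over the 15 arrays. The genes that reached 1000 included collagen IV (COL4A1), the laminin chain LAMC1, fibronectin (FN1), thrombospondin 1 (THBS1), both TIMP1 and TIMP2, and the integrin chains ITGAE, ITGAV, ITGB1, ITGB3 and ITGB5.

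**Figure D1:**
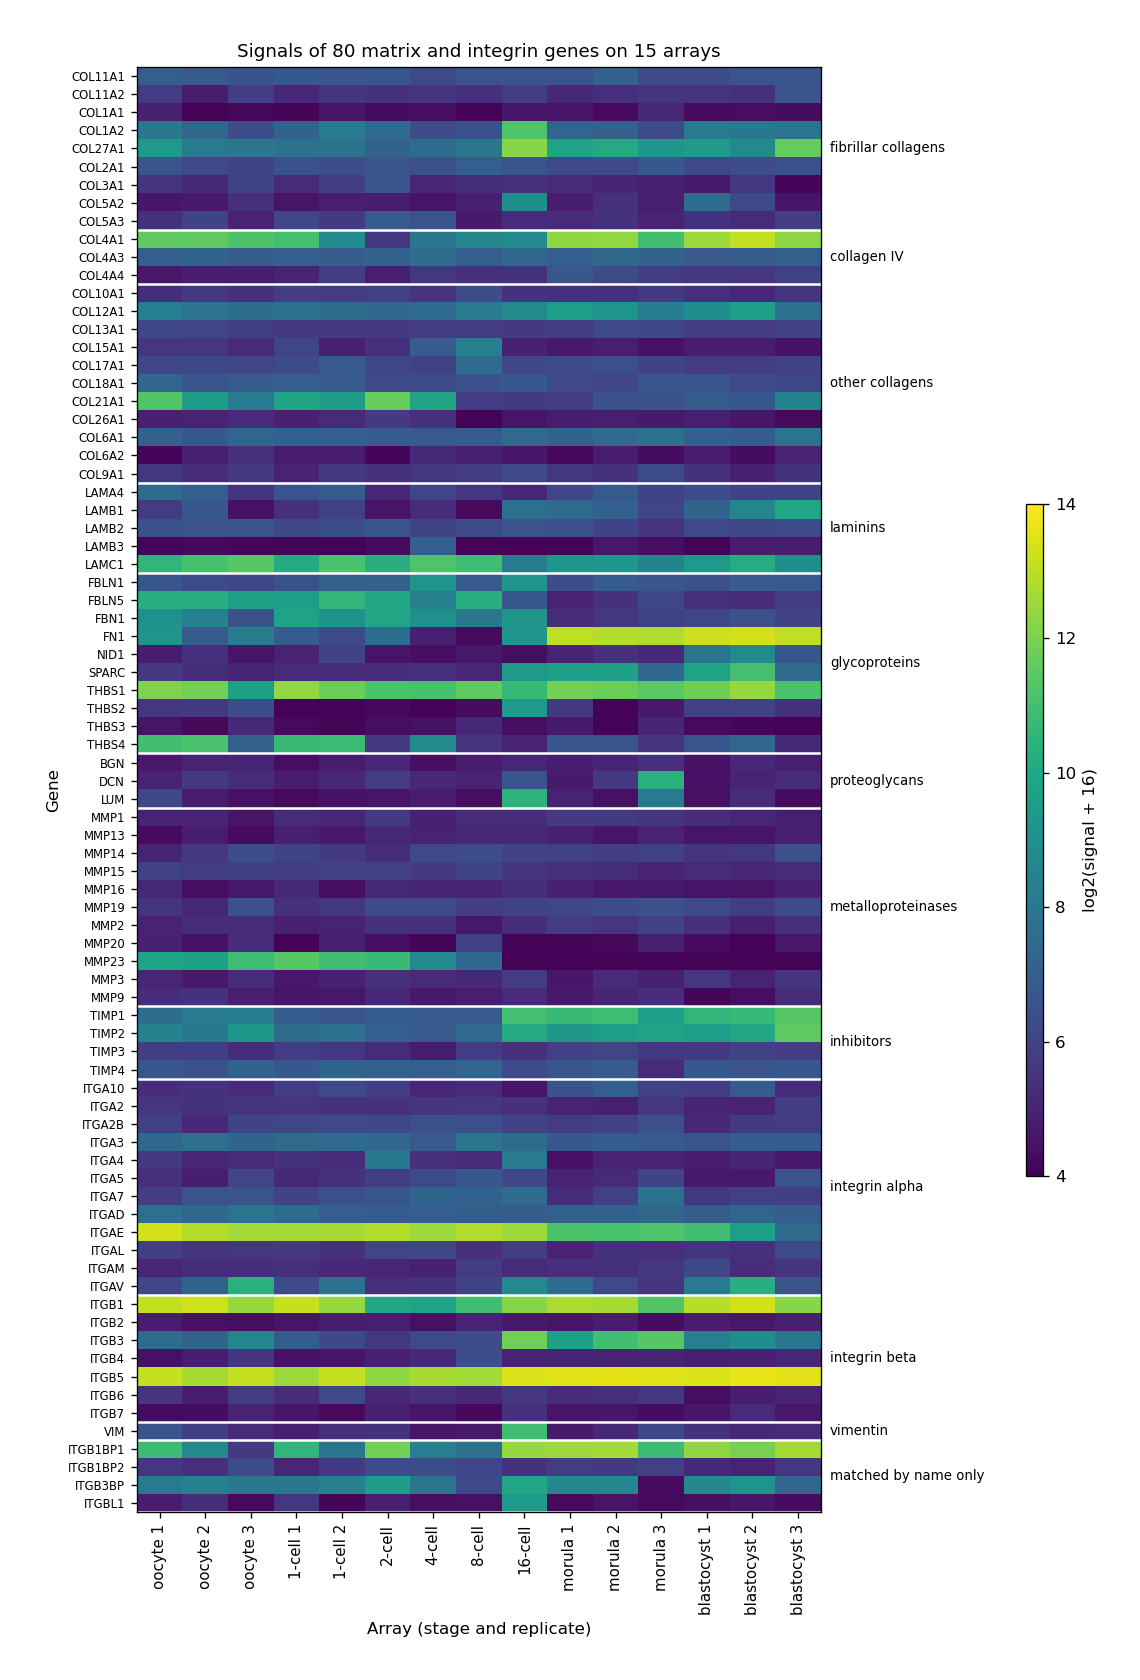
Signals of the 80 genes as log2(signal + 16), in rows grouped by role, on the 15 arrays in columns from oocyte to blastocyst, with darker cells for lower signals. FN1, SPARC, TIMP1 and TIMP2 are bright from the 16-cell or morula stage on, MMP23, FBLN5 and THBS4 are bright in oocytes and 1-cell embryos and dim late, COL4A1 and ITGB1 are dim from the 2-cell to the 8-cell array, and VIM and LUM stand out on the 16-cell array.

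Between oocyte and morula, the stages on both sides of the start of transcription from the embryo's genome, 12 of the 80 genes passed the test (limma, adjusted p under 0.05 over all probe sets). COL4A4, FN1, ITGB3, MMP1, SPARC and TIMP1 rose, and COL21A1, FBLN5, FBN1, LAMC1, MMP23 and THBS4 fell. The 6 rises are 7.5% of the genes, against 17.7% of all genes, and the 6 falls also 7.5%, against 8.63%. The median change of the 80 was 0.0085, against 0.14 for all genes. Between oocyte and blastocyst, 7 rose (COL4A4, FN1, ITGB1BP1, LAMB1, NID1, SPARC and TIMP1), 8.75% against 17.8% of all genes, and 5 fell (FBLN5, ITGAE, MMP15, MMP23 and THBS4), 6.25% against 8.95%, with medians of -0.08 and 0.10. These comparisons share the oocyte arrays, so their values stand side by side below and are not independent. Scaling moved the falls: from oocyte to blastocyst, centring each array on its median gave 6 higher and 9 lower genes and quantile normalization 5 and 8. The fall count was 3 without oocyte 1, oocyte 2 or blastocyst 1, and the rise count was 4 without blastocyst 2.

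No gene of the 80 passed between morula and blastocyst with limma, where 0.164% of all genes were higher and 0.0765% lower, and 7 had an unadjusted p under 0.05 (8.75%, against 9.26%). None passed between oocyte and 1-cell embryo either, against 0.284% higher and 0.0655% lower, and 6 had an unadjusted p under 0.05 (7.5%, against 8.92%). The 7 were COL1A2, ITGAE, ITGB3, MMP1, MMP2, NID1 and THBS2, and the 6 were COL4A1, FBN1, FN1, MMP23, THBS2 and TIMP1.

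**Figure D2:**
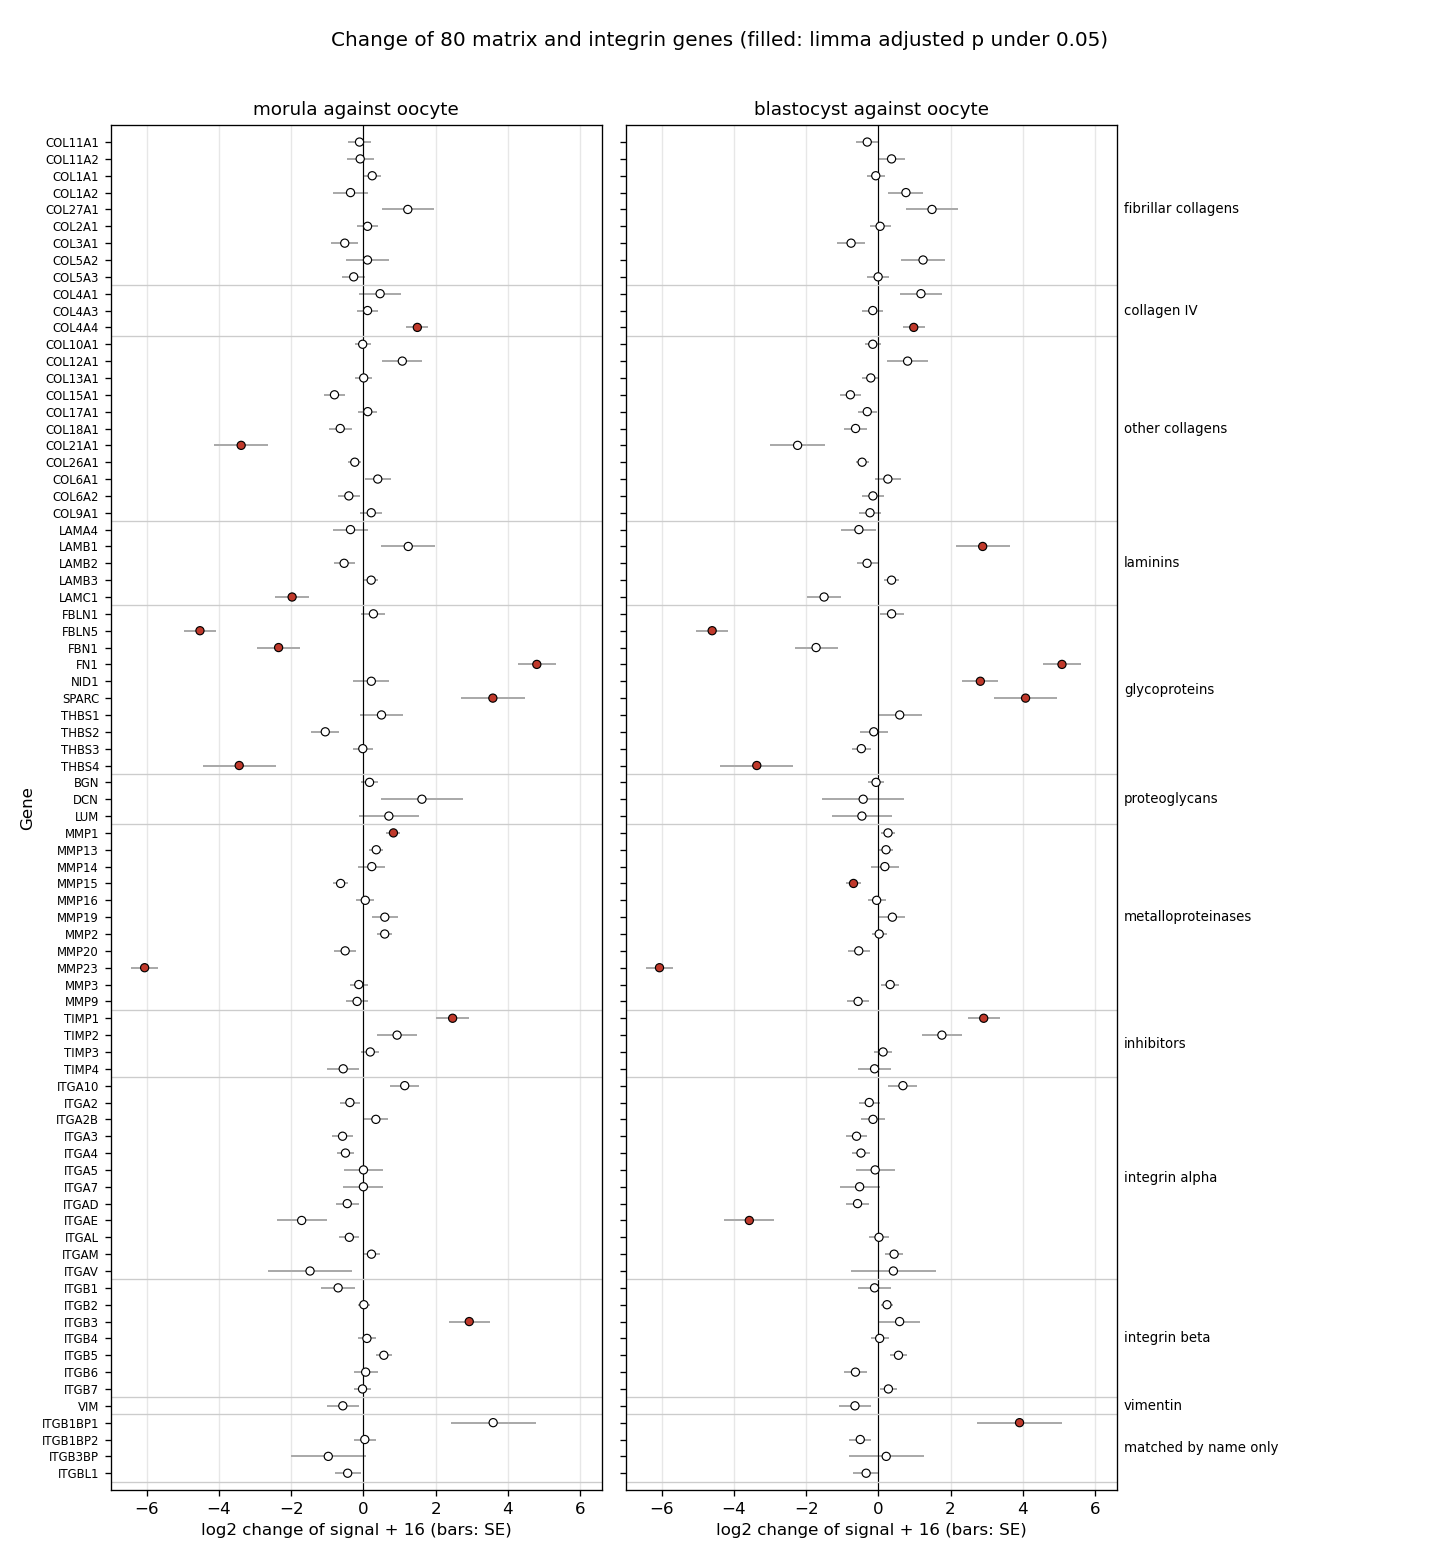
Difference of log2(signal + 16) from oocyte to morula (left) and from oocyte to blastocyst (right) for each of the 80 genes, grouped by role, with filled points for genes past the test. FN1 lies highest at 4.80 and 5.09 and MMP23, at 1.00 on every later array, lowest at -6.06 and -6.06, a size set by the added 16, while most genes lie near 0.

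The collagen IV chains of basement membranes are described first. COL4A1, a chain of the collagen IV found in nearly all basement membranes, was high in oocytes, low in cleaving embryos and high again in morulae and blastocysts. Its signals were 2989, 2964 and 2358 in oocytes, 5129, 5319 and 2006 in morulae and 5825, 8596 and 4904 in blastocysts. Morula 3 lay below every oocyte and the blastocyst arrays lay above them all, but neither change from the oocyte passed: 0.46 (SE 0.59, adjusted p = 0.649) for the morula and 1.18 (SE 0.59, adjusted p = 0.204) for the blastocyst. A dimmer probe set of COL4A1, at 6.10, 9.52 and 2.91 in oocytes and 80.4, 128 and 429.8 in morulae, did pass (3.06, SE 0.51, adjusted p = 0.00239). COL4A4, a chain of the collagen IV of specialised membranes such as that of the kidney filter, was dim throughout. It gave 9.27, 11.8 and 12.03 in oocytes, 89.8, 62.2 and 36.96 in morulae and 34.8, 31.7 and 46.6 in blastocysts, and all 6 later arrays lay above the 3 oocyte arrays. The change was 1.49 (SE 0.31, adjusted p = 0.00729) to the morula and 0.98 (SE 0.31, adjusted p = 0.0496) to the blastocyst. The latter was lost with the replicate number as a block (adjusted p = 0.0674) and without any 1 of the 6 arrays (adjusted p from 0.0820 to 0.132). A weaker probe set of COL4A4 stayed at 1.00 to 5.09 on all arrays. COL4A3, the partner of COL4A4 in such membranes, stayed between 95.2 and 173 on all 15 arrays, with a morula change of 0.11 (SE 0.29, adjusted p = 0.842).

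The laminin chains and nidogen did not move together. LAMC1, the gamma chain shared by most laminins, fell from 1499, 2138 and 2706 in oocytes to 605, 630.4 and 347 in morulae, groups that did not overlap (-1.98, SE 0.47, adjusted p = 0.0153). The blastocyst arrays were at 651, 1165 and 479, below every oocyte array, with a change of -1.50 (SE 0.47, adjusted p = 0.0501) that passed with the replicate number as a block (adjusted p = 0.0360) and without blastocyst 2 (adjusted p = 0.0347). LAMC1 has 5 other probe sets: 1 of them rose from oocyte to morula (1.47, SE 0.30, adjusted p = 0.00715) at signals of 7.66 to 90.1, and the mean of all 6 probe sets did not pass (adjusted p = 0.791). LAMB1, a beta chain of embryonic laminins, went the other way, from 37.2, 91.02 and 6.18 in oocytes through 165, 117 and 52.9 in morulae to 129, 361 and 926 in blastocysts. All blastocyst arrays lay above all oocyte arrays, while morula 3 lay below oocyte 2, and the change was 1.24 (SE 0.75, adjusted p = 0.296) for the morula and 2.89 (SE 0.75, adjusted p = 0.0222) for the blastocyst. The blastocyst call was lost without oocyte 1, oocyte 3, blastocyst 2 or blastocyst 3 (adjusted p = 0.0578, 0.0637, 0.0617 and 0.0620).

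NID1, the nidogen that bridges laminin and collagen IV, was near the lowest signals up to the morula and rose in the blastocyst. Its signals were 11.6, 27.3 and 7.97 in oocytes, 15.3, 25.9 and 18.4 in morulae and 215, 415 and 86.2 in blastocysts, so every blastocyst array was above all others of the series, the 1-cell array at 48.2 included. The change from oocyte to blastocyst was 2.83 (SE 0.49, adjusted p = 0.00318). From morula to blastocyst it was 2.61 (SE 0.49, adjusted p = 0.0945), which passed with the replicate number as a block (adjusted p = 0.0478) and without blastocyst 3 (adjusted p = 0.0247), the array with the lowest blastocyst signal. The laminin chains LAMA4, LAMB2 and LAMB3 did not pass in either comparison, at 1.00 to 172 on oocyte, morula and blastocyst arrays. LAMA1, an alpha chain of embryonic laminin, was not analysed here.

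None of the 9 fibrillar collagens, which form the banded fibres of connective tissue, passed from oocyte to morula or to blastocyst. Their median change was -0.09 for the morula and 0.05 for the blastocyst. COL1A2, a chain of type I collagen, had 237, 146 and 67.2 in oocytes, 136, 117 and 64.1 in morulae and 258, 251 and 212 in blastocysts. The blastocyst arrays lay above the morula arrays and within or above the oocyte arrays, and no change passed (1.12, SE 0.48, adjusted p = 0.619 from morula to blastocyst). COL27A1, a minor fibrillar collagen, had 665, 256 and 232 in oocytes and 867, 1093 and 587 in morulae, overlapping groups (1.23, SE 0.71, adjusted p = 0.278), and blastocyst 3, at 3209.9, stood above blastocyst 1 and 2 at 694 and 426. COL5A2, a chain of type V collagen, reached 174 and 59.8 on blastocyst 1 and 2 but 8.04 on blastocyst 3. Its change from the oocyte was 1.24 (SE 0.61, adjusted p = 0.196), and it passed without blastocyst 3 (adjusted p = 0.0106). The other 6 fibrillar chains stayed at 1.00 to 125 on all 15 arrays. COL3A1 among them had a blastocyst change of -0.75 (SE 0.38, adjusted p = 0.208), which passed without blastocyst 2 (adjusted p = 0.0491).

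Of the 11 other collagens, 1 fell. COL21A1, a collagen that associates with fibrils, had signals of 2459, 702 and 269 in oocytes, 895 and 697 in 1-cell embryos, 3229 and 862 on the 2-cell and 4-cell arrays, and 38.03 on the 8-cell array. Morulae had 39.3, 73.9 and 72.9 and blastocysts 108, 91.5 and 348. The lowest oocyte array, oocyte 3, was above every morula array and below blastocyst 3. The change was -3.39 (SE 0.76, adjusted p = 0.0112) to the morula and -2.24 (SE 0.76, adjusted p = 0.0674) to the blastocyst, and the latter passed without oocyte 3 or blastocyst 3 (adjusted p = 0.0145 and 0.0386). COL12A1, another collagen that associates with fibrils, had 307, 208 and 180.1 in oocytes and 748, 563 and 284 in morulae, with morula 3 below oocyte 1, and did not pass (1.08, SE 0.56, adjusted p = 0.224). The remaining 9 ran from 1.00 to 305 over the series, with morula changes of -0.80 to 0.40.

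Fibronectin made the largest rise of the 80 genes. FN1, the glycoprotein that links integrins to other matrix proteins, had signals of 555, 108 and 286 in oocytes, 8475, 7524 and 7198 in morulae and 9525, 10429 and 8366 in blastocysts. The morula and blastocyst arrays lie close to each other and more than 10-fold above every oocyte array. The change was 4.80 (SE 0.52, adjusted p = 2.20e-04) to the morula and 5.09 (SE 0.52, adjusted p = 1.68e-04) to the blastocyst, and within the arrays without and with spike-in signal the morula change was 3.81 and 5.22. A weaker probe set of FN1, at 1.00 to 17.8 on all arrays, did not pass (0.36). SPARC, a collagen-binding glycoprotein of basement membranes, rose from 34.9, 23.8 and 16.9 in oocytes to 791, 833 and 151 in morulae and 856, 2104 and 157 in blastocysts. All 6 later arrays were above the oocyte arrays, and array 3 was the lowest of both later stages. The change was 3.58 (SE 0.88, adjusted p = 0.0180) to the morula and 4.08 (SE 0.88, adjusted p = 0.00960) to the blastocyst. The morula call was lost without oocyte 2, morula 1 or morula 2 (adjusted p = 0.0552, 0.0674 and 0.0706).

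FBLN5 and FBN1, proteins of elastic fibres, fell to the morula. FBLN5 (fibulin 5), needed for elastic fibre assembly, had 1202, 1191 and 811 in oocytes, 16.1, 27.00 and 55.5 in morulae and 26.03, 22.1 and 36.8 in blastocysts, with a gap of more than 10-fold between the lowest oocyte and the highest later array. The change was -4.53 (SE 0.44, adjusted p = 1.25e-04) to the morula and -4.60 (SE 0.44, adjusted p = 1.27e-04) to the blastocyst. FBN1 (fibrillin 1), the main protein of microfibrils, had 509, 317 and 73.9 in oocytes, 866 and 545 in 1-cell embryos and 23.3, 32.6 and 45.8 in morulae. Oocyte 3 lay just above the morula arrays and far below the other oocytes, and the change was -2.35 (SE 0.60, adjusted p = 0.0207). The adjusted p was above 0.05 when oocyte 1 (0.0704), oocyte 2 (0.0753), morula 1 (0.0734) or morula 2 (0.0632) was left out, and with the compared stages alone in the fit (adjusted p = 0.0688). In blastocysts FBN1 was at 56.9, 73.4 and 50.8 (-1.72, SE 0.60, adjusted p = 0.0732), and it passed without oocyte 3 (adjusted p = 0.00317). FBLN1 (fibulin 1) did not differ beyond its spread, at 85.2, 59.3 and 56.1 in oocytes and 65.8, 103 and 83.8 in morulae (0.28, SE 0.33, adjusted p = 0.628).

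Thrombospondins, which bind cells, matrix and growth factors, differed from one another. THBS4 had 1990.1, 2238 and 116 in oocytes, 1735 and 1854 in 1-cell embryos, 87.6, 80.2 and 30.8 in morulae and 82.8, 142 and 18.9 in blastocysts. Oocyte 3 lay apart from the other oocytes and below blastocyst 2. The change was -3.44 (SE 1.01, adjusted p = 0.0398) to the morula and -3.37 (SE 1.01, adjusted p = 0.0427) to the blastocyst. Leaving out any 1 of the arrays compared, save oocyte 3, lost both calls, with adjusted p from 0.0774 to 0.137 for the morula and from 0.0566 to 0.145 for the blastocyst. THBS1 has 6 probe sets that disagree. The highest, at 4273, 3698 and 811 in oocytes and 3859, 3419 and 2779 in morulae, did not pass (0.50, SE 0.61, adjusted p = 0.631). A second one went from 612, 1536 and 1475 to 40.5, 32.8 and 111 (-4.01, SE 0.51, adjusted p = 5.10e-04) and a further one from 848, 516 and 762 to 2666, 1644 and 1529 (1.42, SE 0.36, adjusted p = 0.0204), so no direction is given for THBS1. THBS2 was at 32.3, 35.3 and 66.9 in oocytes, 1.00 and 1.00 in 1-cell embryos and 35.9, 1.20 and 9.51 in morulae. It did not pass (-1.06, SE 0.39, adjusted p = 0.0882), but did without morula 1 (adjusted p = 0.0151). THBS3 stayed at 1.00 to 19.4 on all arrays.

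**Figure D3:**
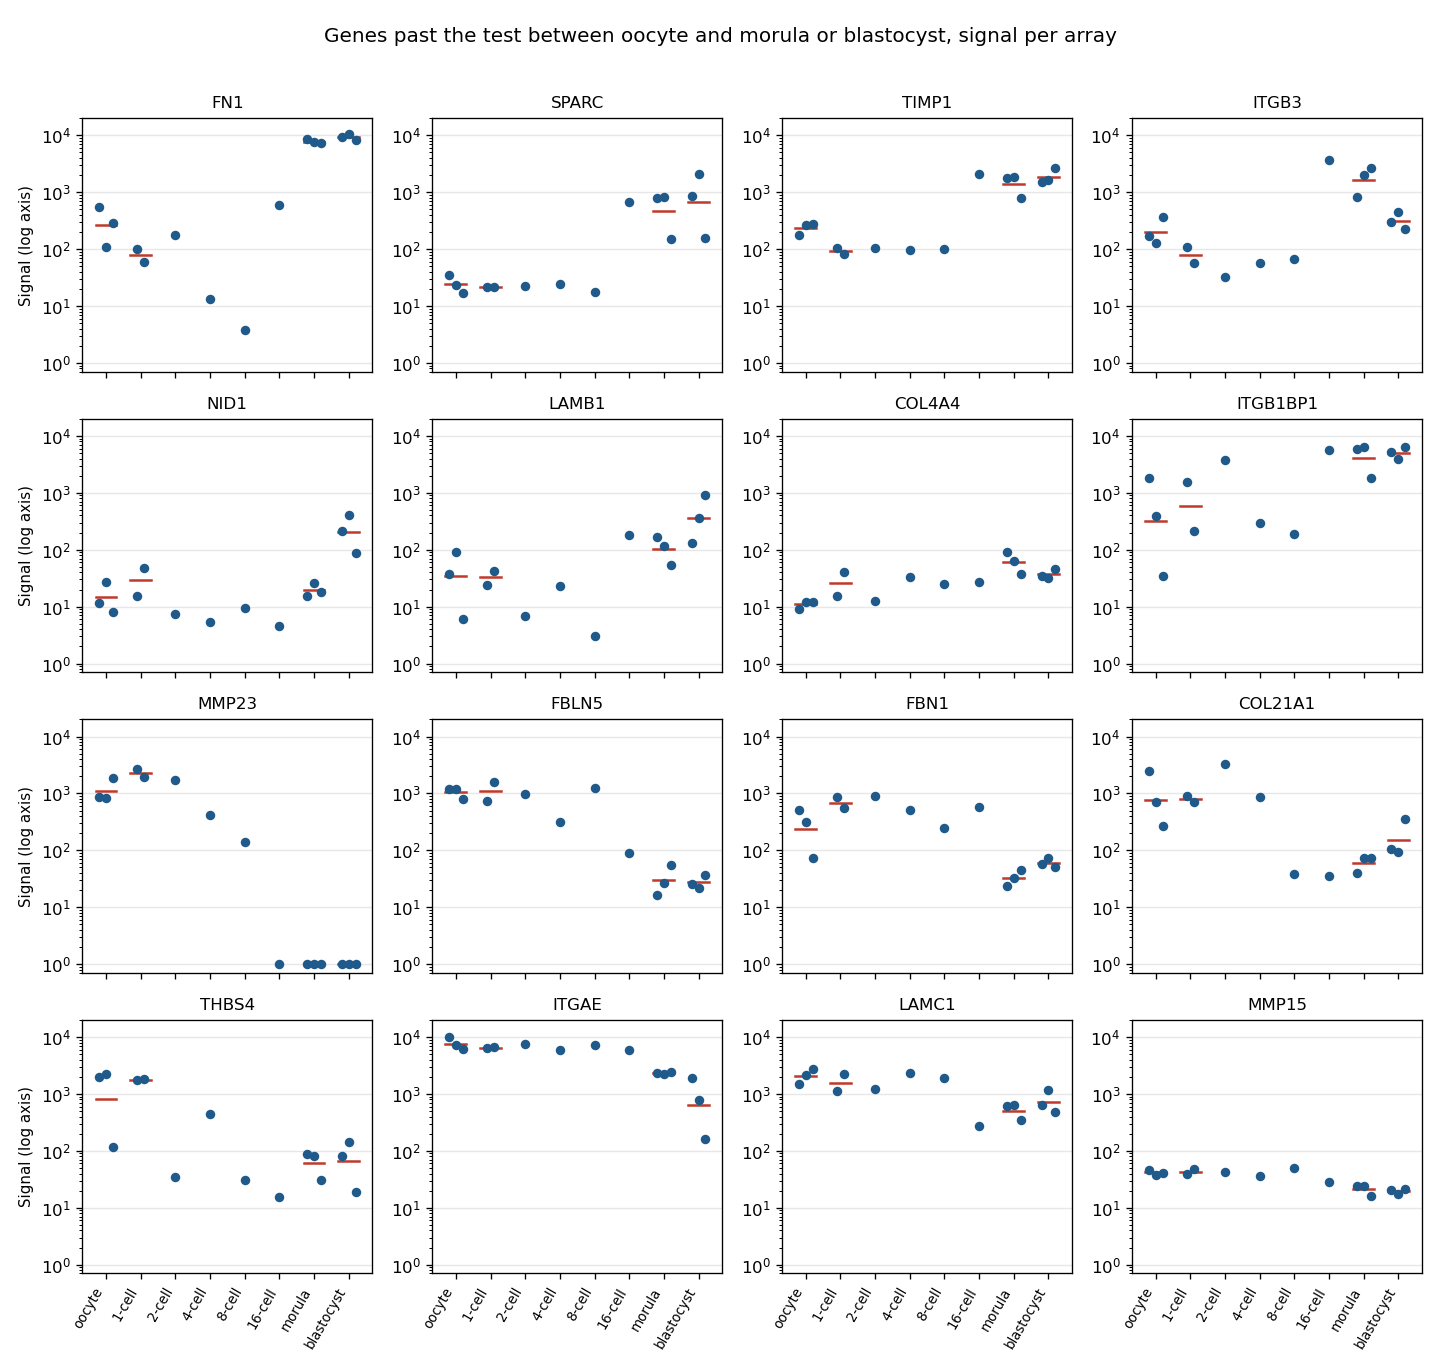
Signals on a log axis by stage for 16 of the 17 genes past the test from oocyte to morula or to blastocyst (MMP1 is left out), 1 point per array. FN1, SPARC, TIMP1, LAMB1 and NID1 are higher late, FBLN5, THBS4 and MMP23 are higher early, and ITGB3 is highest on the 16-cell and morula arrays.

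The small leucine-rich proteoglycans LUM (lumican), DCN (decorin) and BGN (biglycan), which coat collagen fibrils, and VIM (vimentin), the filament protein of mesenchymal cells, did not pass in either comparison. DCN was at 15.1, 36.2 and 22.97 in oocytes, 10.3, 35.9 and 1324 in morulae and 6.62, 15.4 and 21.1 in blastocysts, and LUM at 54.6, 12.2 and 5.66, 15.3, 5.78 and 256 and 5.78, 22.5 and 3.95. Of these 9 arrays morula 3 was the high one for both, and DCN and LUM were the 2 genes of the 80 at least 4-fold higher there than on morula 1 and 2 (2.5%, against 1.87% of all genes). On that array the fibroblast marker THY1 was at 2421, against 43.5 and 36.98 on morula 1 and 2, while COL1A1 and COL3A1 were at 18.9 and 13.5. The summed signal of the 13 measured stroma and fibroblast markers, which include DCN and LUM, was 2072, 1973 and 5549 on the morula arrays. Without DCN, LUM and THY1, left out after their values were seen, the other 10 summed to 2003, 1894 and 1549, lowest on morula 3. Those left out were the ones high on morula 3, so a smaller sum there was set in part by that choice. The part of such cells in these values was not tested. VIM was at 86.9, 42.6 and 20.1 in oocytes, 10.7, 18.4 and 56.3 in morulae and 28.2, 18.2 and 21.4 in blastocysts (-0.57, SE 0.45, adjusted p = 0.435 to the morula). BGN stayed at 4.50 to 25.9 on all arrays.

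Among the metalloproteinases 1 gene had a high signal, and it fell on 1 of its 2 probe sets. MMP23, a membrane-bound MMP found in reproductive tissues, had 880.1, 838 and 1896 in oocytes, 2726 and 1923 in 1-cell embryos, 1690.5, 416 and 142 on the 2-cell, 4-cell and 8-cell arrays, and exactly 1.00 on the 16-cell array and all 6 morula and blastocyst arrays. The change was -6.06 (SE 0.38, adjusted p = 1.68e-05) to the morula and -6.06 (SE 0.38, adjusted p = 2.07e-05) to the blastocyst. With every later array at 1.00 its size is set by the value added before taking logs: both changes were -9.13 with 1 added and -4.19 with 64 added. A second probe set of MMP23 went the other way, from 8.15, 2.78 and 2.58 in oocytes to 50.4, 34.7 and 63.1 in morulae and 135, 116 and 319 in blastocysts (1.66, SE 0.40, adjusted p = 0.0159 and 3.21, SE 0.40, adjusted p = 4.64e-04). MMP1, an interstitial collagenase, rose from 14.7, 14.7 and 6.94 to 35.2, 35.7 and 29.8 in morulae and was at 22.99, 17.8 and 12.6 in blastocysts. The morula change was 0.83 (SE 0.19, adjusted p = 0.0143), at low signals on both sides, and was lost without morula 2 (adjusted p = 0.0507) and with the arrays without spike-in signal alone (adjusted p = 0.0625). MMP15, a membrane-bound MMP, was at 46.2, 37.8 and 41.5 in oocytes and 20.8, 17.6 and 21.4 in blastocysts (-0.69, SE 0.20, adjusted p = 0.0392), a call lost without any 1 of these arrays (adjusted p from 0.0616 to 0.117). The other 8, the gelatinases MMP2 and MMP9 among them, stayed at 1.00 to 75.8 on all arrays. MMP19, one of these, had a morula change of 0.59 (SE 0.36, adjusted p = 0.299) and passed without oocyte 3 (adjusted p = 0.0361).

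TIMP1, an inhibitor of most MMPs, rose. Its signals were 180.5, 261 and 275 in oocytes, 104 and 80.6 in 1-cell embryos and 104, 97.2 and 103 on the next 3 arrays, against 2074 at the 16-cell stage, 1761, 1875 and 786 in morulae and 1515, 1628 and 2707 in blastocysts. Every array from the 16-cell stage on was above every earlier one. The change was 2.47 (SE 0.45, adjusted p = 0.00376) to the morula and 2.92 (SE 0.45, adjusted p = 0.00153) to the blastocyst, and a dimmer probe set passed for the blastocyst (1.99, SE 0.43, adjusted p = 0.00966). TIMP2, which also takes part in the activation of MMP2, followed a like course at 326, 249 and 637 in oocytes, 610.3, 735 and 857 in morulae and 766, 972 and 2964 in blastocysts. Oocyte 3 overlapped the morula arrays, and the change was 0.93 (SE 0.55, adjusted p = 0.289) to the morula and 1.76 (SE 0.55, adjusted p = 0.0507) to the blastocyst. The blastocyst change passed with the replicate number as a block (adjusted p = 0.0162) and without oocyte 3 or blastocyst 1 (adjusted p = 0.0277 and 0.0438). TIMP3 and TIMP4 did not pass, at 11.8 to 51.8 and 20.2 to 139 over all arrays.

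Of the 19 integrin subunits, ITGB3 rose to the morula and ITGAE fell to the blastocyst. ITGB3, the beta chain that pairs with ITGAV to bind fibronectin and vitronectin, had 169, 128 and 372 in oocytes, 3764 on the 16-cell array, 822, 1999.7 and 2692 in morulae and 298, 453 and 224 in blastocysts. All morula arrays were above all oocyte and all blastocyst arrays. The change was 2.93 (SE 0.57, adjusted p = 0.00535) from oocyte to morula, -2.34 (SE 0.57, adjusted p = 0.223) from morula to blastocyst and 0.59 (SE 0.57, adjusted p = 0.538) from oocyte to blastocyst. The other 3 probe sets of ITGB3 gave -0.40, -0.27 and 0.24 from oocyte to morula and did not pass, nor did the mean of all 4 (adjusted p = 0.155). ITGAE, the alpha chain of the integrin that binds E-cadherin, had 10115, 7263 and 6217 in oocytes and 5879 to 7569.9 on the 6 arrays from the 1-cell to the 16-cell stage. It was then 2372, 2213 and 2439 in morulae and 1923, 777 and 161 in blastocysts. The 3 stages did not overlap, and the change was -1.71 (SE 0.69, adjusted p = 0.118) to the morula and -3.57 (SE 0.69, adjusted p = 0.00528) to the blastocyst.

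ITGB1 and ITGB5 had high signals throughout the replicated stages. ITGB1, which pairs with alpha chains for collagen, laminin and fibronectin, had 8719.5, 9869 and 5409 in oocytes, 6783, 6352 and 2497 in morulae and 7626, 10266 and 4779 in blastocysts, overlapping groups (-0.70, SE 0.46, adjusted p = 0.344 and -0.10, SE 0.46, adjusted p = 0.915). ITGB5, a beta chain that pairs with ITGAV, was at 8838, 6661 and 8847 in oocytes, 11767, 12178 and 11773 in morulae and 10982, 12661 and 11979 in blastocysts. The later arrays lay above the oocyte arrays, but the changes did not pass (0.56, SE 0.22, adjusted p = 0.113 and 0.56, SE 0.22, adjusted p = 0.116). ITGAV itself varied within stages, at 54.5, 130.0 and 1275 in oocytes and 251, 1204 and 80.9 in blastocysts (0.42, SE 1.18, adjusted p = 0.860). The 10 other alpha chains ran from 6.47 to 266 and the beta chains ITGB2, ITGB4, ITGB6 and ITGB7 from 2.49 to 69.4 over all arrays. Of these, ITGA10, a collagen-binding chain, did not pass to the morula (1.14, adjusted p = 0.0775) but did with the replicate number as a block (adjusted p = 0.0270), and it is named for that change. Of the genes that match by name only, ITGB1BP1 had 1843, 399 and 35.05 in oocytes, 5989, 6264 and 1816 in morulae and 5196, 3933 and 6501 in blastocysts, with oocytes spread over more than 10-fold. The change was 3.59 (SE 1.18, adjusted p = 0.0605) to the morula, which passed with the replicate number as a block (adjusted p = 0.0271) and without oocyte 1 (adjusted p = 0.0157), and 3.91 (SE 1.18, adjusted p = 0.0430) to the blastocyst, which was lost without oocyte 2, oocyte 3, blastocyst 1, blastocyst 2 or blastocyst 3 (adjusted p = 0.0909, 0.0902, 0.105, 0.0886 and 0.101). ITGB3BP, at 253, 319 and 243 in oocytes and 384, 377 and 3.62 in morulae, did not pass (-0.97, SE 1.04, adjusted p = 0.576).

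During cleavage, 2 of the 80 genes were at least 4-fold below the oocyte mean on each of the 2-cell, 4-cell and 8-cell arrays (2.5%, against 1.28% of all genes): COL4A1 and ITGB1. None was at least 4-fold above it on all 3, against 1.93% of all genes. COL4A1 was at 2035 and 432 on the 1-cell arrays, then 31.8, 224, 376 and 429.8 from the 2-cell to the 16-cell array. ITGB1 was at 8974 and 5484 on the 1-cell arrays, then 988, 843 and 1923, and 4678 at the 16-cell stage. Both were thus low on all 3 cleavage arrays, and ITGB1 was back near the oocyte range at the 16-cell stage while COL4A1 was not. These stages have 1 array each. Their mean was set against the replicated stages in a comparison chosen after seeing the data, in which each single array is taken to vary like the replicated ones.

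In that comparison, 4 genes were lower in 2- to 8-cell embryos than in oocytes, 5% against 3.13% of all genes, and 3 were higher, 3.75% against 4.23%. COL4A1 fell by 4.07 on the log2 scale (SE 0.59, adjusted p = 0.00396), while its dimmer probe set was at 1.30 and did not pass (adjusted p = 0.194), and ITGB1 by 2.71 (adjusted p = 0.00893). FN1 was at 179, 13.5 and 3.84 on the 3 arrays, a change of -2.52 (SE 0.52, adjusted p = 0.0206) that was lost without oocyte 1 (adjusted p = 0.0603). THBS2 was at 2.51, 1.23 and 3.89 (-1.67, SE 0.39, adjusted p = 0.0328) and was lost without oocyte 1, oocyte 2 or oocyte 3 (adjusted p = 0.0669, 0.0711 and 0.0644). All these cleavage arrays had spike-in signal, and THBS2 was also lost with the spike-in class as a block (adjusted p = 0.0517). The 3 higher genes were each raised by part of the arrays: COL15A1 had 26.2, 104 and 305 (1.42, SE 0.30, adjusted p = 0.0225), FBLN1 117, 561 and 94.2 (1.31, SE 0.33, adjusted p = 0.0459), and LAMB3 3.75, 114 and 1.00 (0.97, SE 0.20, adjusted p = 0.0206). COL15A1 and LAMB3 were chosen for naming after their values were seen. FBLN1 was lost without any 1 oocyte array (adjusted p from 0.0698 to 0.134) and with the spike-in class as a block (adjusted p = 0.0628). The count of higher genes was 0 without oocyte 1 and without oocyte 2, while the count of lower genes was 2 without oocyte 1. THBS4, at 34.3, 443 and 31.1, did not pass (-3.04, SE 1.01, adjusted p = 0.125), but did without oocyte 3 (adjusted p = 0.00471).

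**Figure D4:**
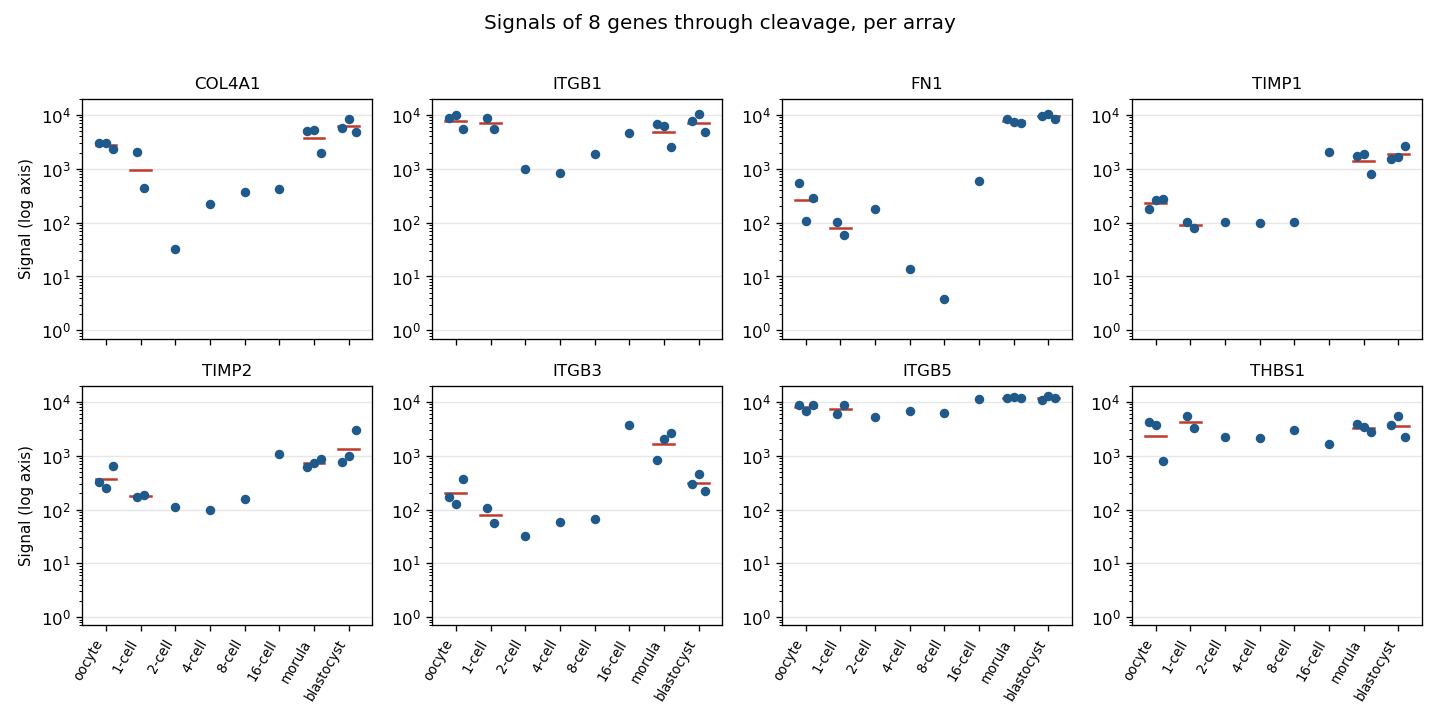
Signals on a log axis from oocyte to blastocyst for genes described over cleavage, 1 point per array, with 1 array each at the 2-cell, 4-cell, 8-cell and 16-cell stages. COL4A1 drops to 31.8 on the 2-cell array and ITGB1 to 843 on the 4-cell array, and both are back above 2000 on every morula array.

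Against the same cleavage arrays, 9 genes were higher in the morula (11.2%, against 18.3% of all genes) and 10 lower (12.5%, against 10.3%). This comparison shares the morula arrays with that against the oocyte and the cleavage arrays with the one above. FN1 rose by 7.32 (SE 0.52, adjusted p = 2.22e-05), ITGB3 by 4.63 (SE 0.57, adjusted p = 3.69e-04) and COL4A1 by 4.53 (SE 0.59, adjusted p = 5.02e-04), and the dimmer probe set of COL4A1 rose too (1.75, SE 0.51, adjusted p = 0.0328). TIMP1, TIMP2, ITGB1, ITGB5, SPARC and COL4A4 were the other 6 that rose, by 0.98 to 3.69. COL15A1, COL21A1, FBLN1, FBLN5, FBN1, ITGA4, LAMB3, LAMC1, MMP15 and MMP23 fell, with changes of -4.85 to -0.67. ITGA4, which pairs with ITGB1 to bind fibronectin, owed its cleavage mean to the 2-cell array, at 251 against 25.1 and 20.1 on the 4-cell and 8-cell arrays. COL4A4, SPARC and COL21A1 were lost without morula 1 or morula 2 (adjusted p from 0.0528 to 0.147), LAMC1 without morula 3 (adjusted p = 0.0596), and FBLN1 and MMP15 without any 1 morula array (adjusted p from 0.0714 to 0.160). Without morula 1 the count of lower genes was 6. With the spike-in class as a block, COL4A4, FBLN1 and MMP15 were lost (adjusted p = 0.0685, 0.0923 and 0.0584). ITGB5 was lost with median centring (adjusted p = 0.0705) and with the mean of its probe sets (adjusted p = 0.244). TIMP2 was lost with the mean of its probe sets (adjusted p = 0.0855) and ITGB1 with the compared stages alone (adjusted p = 0.0834).

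The single 16-cell array was high for several connective tissue genes. On it, 11 of the 80 genes (13.8%) were at least 4-fold above both the 8-cell array and the morula mean, against 4.11% of all genes: COL1A2, COL27A1, COL5A2, FBLN1, ITGA4, ITGAV, ITGB3BP, ITGBL1, LUM, THBS2 and VIM. With 1 array there is no replicate check. The 8-cell array had the lowest mean signal of all arrays and the 16-cell array the highest, and no normalization was added. VIM was at 1959 there, against 10.04 on the 8-cell array and 10.7, 18.4 and 56.3 in morulae. LUM was at 1397 against 4.92, THBS2 at 653 against 3.89, ITGBL1 at 696 against 5.79, and COL5A2 at 486 against 13.7. COL1A2 was at 2432 against 76.6 and COL27A1 at 4762 against 234. ITGAV, ITGA4, FBLN1 and ITGB3BP were at 423, 266, 571 and 933, against 48.98, 20.1, 94.2 and 57.05 on the 8-cell array. Some of these genes were as high or nearly so on another array: ITGAV was at 1275 on oocyte 3, ITGA4 at 251 and ITGB3BP at 721 on the 2-cell array, FBLN1 at 561 on the 4-cell array and COL27A1 at 3209.9 on blastocyst 3. For the other 6 the highest other array was at 32.8 to 260.3.

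Not all connective tissue genes were high there. COL1A1, COL3A1 and DCN were at 8.43, 25.9 and 80.1 on the 16-cell array. Other probe sets of COL1A2, COL27A1, FBLN1 and ITGAV were at 5.93, 1.00, 1.87 and 7.14 there, and the 2 others of ITGB3BP at 87.6 and 20.2 (66.3 and 29.9 on the 8-cell array), so the rise rests on 1 probe set for each of these 5 genes. Probe sets not used for their genes were high there too: one of COL12A1 was at 2338 against 4.71 on the 8-cell array, and one of TIMP2 at 724 against 12.2. One of MMP23 was at 248 against 7.66, one of THBS1 at 438 against 5.31 and another of THBS1 at 1164 against 116. The THBS1 probe set followed here was lower on the 16-cell array, at 1650 against 3025. The summed signal of the 13 stroma and fibroblast markers, COL1A2 and LUM included, was 4331 on the 16-cell array, 822 on the 8-cell array, 573 to 962 on the oocyte arrays, 1973 to 5549 on the morula arrays and 1112 to 5144 on the blastocyst arrays. Without COL1A2 and LUM, which are among the 11 genes, the other 11 markers summed to 502 on the 16-cell array and 740.3 on the 8-cell array. Both had been picked for being high on the 16-cell array, so a smaller sum without them was set in advance. Of all 13 markers, 4 had a signal at least 4-fold above the 8-cell array with nothing added, for which no share of all genes was taken. TAGLN, POSTN and TCF21 of that list were at 1.00, 12.7 and 1.08. Of the cumulus and granulosa cell markers, FST was at 945 against 20.2 and HSD3B1 at 780.0 against 19.4, while CYP19A1 and FSHR were at 24.96 and 1.44, and the summed signal of the 16 markers was 11926 against 13813. The part of other cells in the 16-cell values was not tested.

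Several genes that were high or low in the morula already were so on the 16-cell array. In all, 18 of the 80 (22.5%) were at least 4-fold above the 8-cell array there, against 18.9% of all genes, and 4 (5%) at least 4-fold below it, against 6.03%. Beside the 11 genes above, the 18 held FN1, ITGB1BP1, ITGB3, LAMB1, SPARC, TIMP1 and TIMP2. FN1 went from 3.84 to 589, still far below the morula arrays, SPARC from 18.02 to 667, LAMB1 from 3.07 to 183 and ITGB3 from 66.8 to 3764. The other probe sets of ITGB3 went from 4.05 to 10.6, 42.5 to 34.3 and 99.4 to 178. That of FN1 went from 17.1 to 5.44, while a dimmer one of TIMP1 rose from 1.63 to 104. The 4 below were COL15A1, FBLN5, LAMC1 and MMP23. A second probe set of MMP23 went the other way, from 7.66 to 248. That of COL15A1 stayed at 12.9 and 12.7, while several of LAMC1 fell too. FBLN5 went from 1258 to 89.1 and LAMC1 from 1888 to 274, FBLN5 still above and LAMC1 below every morula array, while FBN1 stayed at 577 on the 16-cell array.

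**Figure D5:**
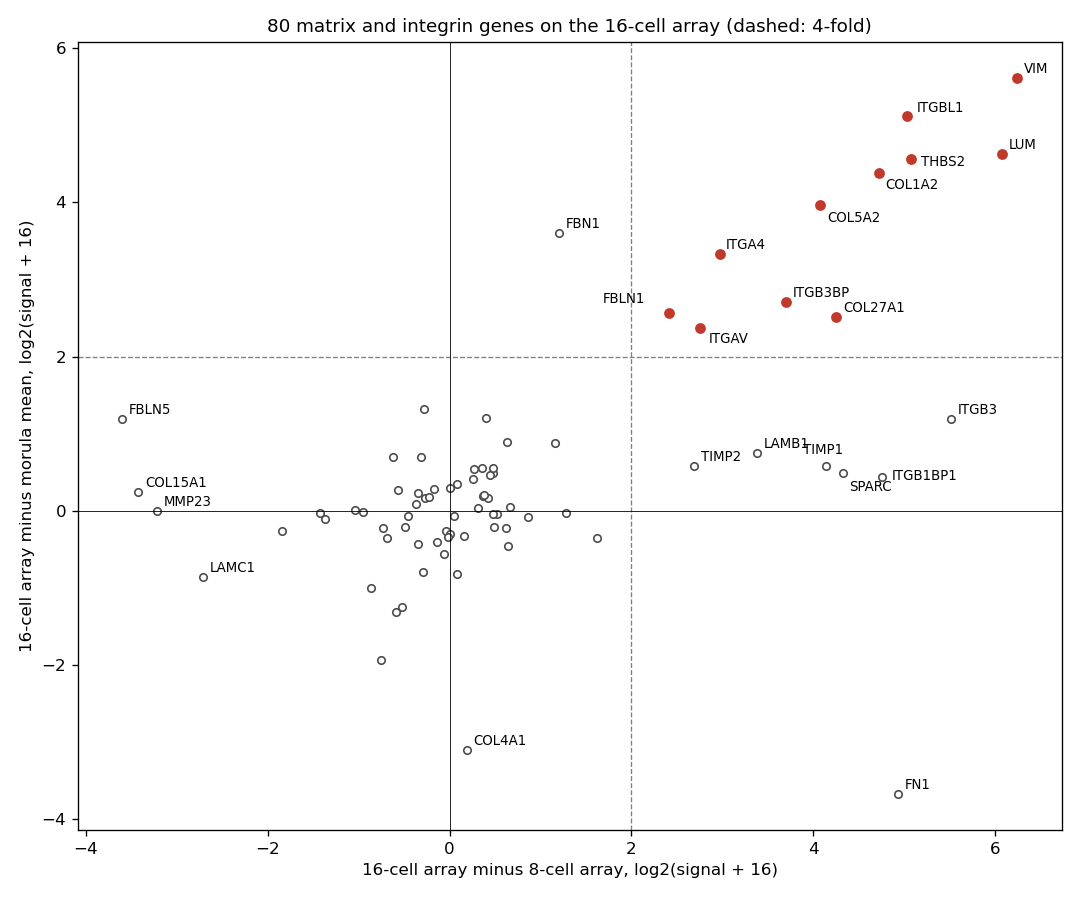
The 80 genes on the 16-cell array: log2(signal + 16) minus that of the 8-cell array (horizontal) and minus the morula mean (vertical), with dashed lines at 4-fold and filled points for the 11 genes past both. VIM, ITGBL1, LUM and THBS2 lie highest on the vertical axis, ITGB3 lies far right without passing the morula line, FN1 and SPARC do likewise, and FBLN5, COL15A1, MMP23 and LAMC1 lie at the left.

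Of the 80 genes, 45 had several probe sets, and these did not always move alike. Of the 12 genes past the test from oocyte to morula, 6 had 1 probe set and 6 had several, and for none of these 6 did another probe set pass in the same direction. For LAMC1 and MMP23 another passed in the opposite direction. From oocyte to blastocyst, 7 of the 12 had 1 probe set, and of the other 5 TIMP1 had a second one past the test in the same direction and MMP23 in the opposite one. COL4A1, COL2A1 and THBS1 had another probe set past the test to the morula although the one followed here was not. To the blastocyst this held for 6 genes, the same 3 with ITGAL, LAMC1 and MMP3. The second probe set of ITGAL, an integrin chain of white blood cells, went from 1.97, 6.70 and 9.07 in oocytes to 214, 54.7 and 40.4 in blastocysts (2.16, SE 0.47, adjusted p = 0.00987), and one of MMP3 (stromelysin 1) from 11.8, 18.9 and 28.7 to 3.53, 4.52 and 8.58 (-0.71, SE 0.20, adjusted p = 0.0339).

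Genes that process, join or sense these proteins were read against the shares of all genes given above, 17.7% higher and 8.63% lower to the morula and 17.8% and 8.95% to the blastocyst. Of 19 measured genes of collagen and matrix processing, 1 rose and 2 fell from oocyte to morula, with a median of 0.28. LOXL4, a collagen cross-linking oxidase, rose (1.90, SE 0.47, adjusted p = 0.0192), and P4HA3, a prolyl hydroxylase subunit, and PLOD1, a lysyl hydroxylase, fell (-6.18, SE 0.51, adjusted p = 5.75e-05 and -2.59, SE 0.44, adjusted p = 0.00258). To the blastocyst 3 rose and 2 fell, and the 3 were LOXL4, PLOD3 and P4HA1, the usual catalytic subunit of collagen prolyl hydroxylase (2.77, SE 0.85, adjusted p = 0.0461). Of 22 other matrix proteins 4 rose and 2 fell to the morula, with a median of -0.27: TGFBI (5.65), CCN1 (3.43), CCN2 (2.19) and MGP (1.48) rose, and the large proteoglycan VCAN (-2.80) and the fibulin family member EFEMP1 (-3.50) fell. Of 19 focal adhesion and receptor genes 2 rose and 1 fell, with a median of -0.03: PTK2 (focal adhesion kinase, 2.84) and ACTN1 (1.24) rose, and FERMT2, an integrin activator, fell (-1.24). ILK, a kinase-like adaptor at integrin tails, passed in the blastocyst (2.79, SE 0.54, adjusted p = 0.00528).

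Markers of cell types that make matrix were measured beside these genes. Of 9 measured hypoblast markers, which include COL4A1, LAMB1 and SPARC, 2 rose to the morula and 3 to the blastocyst and none fell, against 17.7% and 17.8% of all genes higher, and the median change of the list was 0.011 and -0.0019. Their summed signal was 3700.4 to 3977 in oocytes, 11375 to 17488 in morulae and 13886 to 24482 in blastocysts. Most of this sum came from COL4A1, LAMB1 and SPARC on the oocyte arrays, but from other markers on the morula and blastocyst arrays. On oocyte 1 these 3 genes were at 2989, 37.2 and 34.9 of 3977. On morula 1 they were at 5129, 165 and 791 of 17488. HNF4A, APOE and TTR of that list stayed at 1.49 to 45.04 on the morula and blastocyst arrays. The rise of the sum thus came largely from markers of the list that are not named here. Of 16 cumulus and granulosa markers 1 rose and 3 fell to the morula, and their summed signal was 8045 to 11494 in oocytes and 14730.0 to 17571 in morulae, most of it from HAS2 and SERPINE2. To the blastocyst 5 of the 16 rose and 2 fell, and the sum there was 17452 to 22581. From morula to blastocyst 1 rose, against 0.164% of all genes. CYP19A1 and FSHR were at 3.14 to 34.7 on the oocyte arrays. To the morula, of 13 stroma markers 1 rose (PDGFRA) and none fell, of 11 endothelium and blood markers 1 rose and 1 fell, and of 6 sperm markers 1 rose (ODF2) and none fell. Of all genes 17.7% rose and 8.63% fell to the morula, and 17.8% and 8.95% to the blastocyst. Their part in the changes of the matrix genes was not tested.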

How the data were processed

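The deposited table holds, per the labels' protocols, the hybridization of RNA that had been amplified in 3 rounds. Its unit is intensity: the authors deposited 1 linear value for each of 24128 probe sets and 15 arrays. No source used here gives their probe summary, scaling or software. The lowest value was 0.39, the highest 20788, and 2.56% were exactly 1.00, for which no source used here gives a reason. The values were taken as deposited, with no normalization added.

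Without 112 control probe sets, 24016 were fitted with limma (version 3.58.1, R 4.3.3) on log2(signal + 16). The fit had 1 mean per stage, all 15 arrays and a variance trend, and p-values were adjusted over every probe set by the Benjamini-Hochberg method at 0.05. The spread comes from the 4 replicated stages, and each p-value reflects only how far these arrays vary, which may be technical. A permutation of 3 against 3 arrays cannot go below 0.10. Of the probe sets 13292 had 1 gene symbol, 86 several and 10638 none, and all 80 symbols occur among the genes RefSeq lists for ARS-UCD2.0. The probe set with the highest mean log2 signal stands for a gene.

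The members, lists and tests were chosen with earlier results of these data known. Named were up to 12 rises and 12 falls past the test per comparison, the highest genes of each role, genes at least 4-fold apart on the single arrays, genes whose probe sets disagree, and a fixed set. Deviations from the stage means of arrays with one number correlated at 0.142, 0.107 and 0.182 for oocyte and morula, at 0.195, 0.106 and 0.306 for morula and blastocyst, and at 0.278, 0.276 and 0.285 for oocyte and blastocyst. The replicate block was read as pairing these stages, though the sample titles name no source shared by arrays of one number. The 1-cell arrays were in that fit too. Number 1 correlated at 0.183, 0.172 and 0.155 with oocyte, morula and blastocyst, and number 2 at -0.1155, -0.131 and -0.0902. In the replicated stages all arrays numbered 3 had spike-in signal and all numbered 1 were without it. Other alternatives were another normalization, filter, pseudocount, variance model or probe set, the compared stages alone, spike-in classes and left-out arrays. The procedure was tested on simulated data. No genome or sequence was used here. Plots were made in Python 3.11.15 with matplotlib 3.10.9.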

Additional observations from a re-analysis of the deposited data

How the results depend on the processing

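Each change of a named gene was recomputed under up to 20 alternatives. Of 4209 recomputed values 3939 kept the side of the threshold, 178 kept direction but no longer passed, 80 passed only there and 12 reversed. Most of the 4209 belong to changes that did not pass in the main fit. All those from morula to blastocyst and from oocyte to 1-cell embryo are among them. The 178 and the 12 all belong to changes that did pass, so the 3939 does not measure how well the calls held. Direction was compared only for changes that passed in the main fit or in the alternative, so reversals among the rest were not counted. The arrays with spike-in signal alone, which leave 1 residual degree of freedom, gave 0 higher and 0 lower genes in every comparison, and 0 of 24016 probe sets passed there. No direction of a gene past the test from the oocyte to morula or blastocyst changed within either spike-in class.

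The counts that moved were these. Without the arrays numbered 3, 10 genes were higher in the morula than the oocyte, 8 lower in the blastocyst than the oocyte, 5 higher and 7 lower in the 2- to 8-cell mean than the oocyte, and 15 higher in the morula than that mean. From morula to blastocyst 1 gene (NID1) was higher with the replicate block, without blastocyst 3 and with the mean of all probe sets. From oocyte to blastocyst 8 genes were lower with quantile normalization, 9 with median centring, 10 with the arrays without spike-in signal alone and 8 with the mean of all probe sets. From oocyte to the 2- to 8-cell mean, 1 gene was higher with the filter on low probe sets, 0 with a pseudocount of 1, and 0 were higher and 0 lower with the compared stages alone. With the lowest-mean probe set 2 genes were lower there, and 5 higher and 6 lower from that mean to the morula. The replicate block could not be fitted to these single-array comparisons, and over all 80 genes it changed 6 calls in the other comparisons, those of ITGB1BP1, ITGA10, NID1, LAMC1, COL4A4 and TIMP2 given above.

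With 1 array left out, 4 to 7 genes were higher and 4 to 6 lower from oocyte to morula, 0 to 1 higher and 0 lower from morula to blastocyst, 4 to 7 higher and 3 to 6 lower from oocyte to blastocyst, and 0 either way from oocyte to 1-cell embryo. Over the single-array comparisons 0 to 3 were higher and 2 to 5 lower in the 2- to 8-cell mean than the oocyte, and 7 to 9 higher and 6 to 8 lower in the morula than that mean.

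All 12 reversals, counted only where the main fit or the alternative passed, came with the lowest-mean probe set of a gene. From oocyte to morula COL4A4 was then at -0.048, ITGB3 at -0.40, LAMC1 at 0.55 and MMP23 at 1.66, and from oocyte to blastocyst MMP15 at 0.47 and MMP23 at 3.21. From oocyte to the 2- to 8-cell mean COL4A1 was at 1.30 and FN1 at 0.26, and from that mean to the morula COL4A4 at -0.030, FBLN1 at 0.13, ITGB3 at -0.12 and MMP23 at 1.41. The cause was not tested. Low signals, which have no stated background, and 1 to 3 arrays a stage limit every value.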

Other observations

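Some genes outside the 80 that act on the matrix were also high on the 16-cell array. PLOD2, a lysyl hydroxylase that prepares collagen for cross-linking, was at 5675 there, against 8.79 on the 8-cell array and 642, 209 and 39.3 in morulae. HSPG2 (perlecan), a proteoglycan of basement membranes, was at 2951 against 149 and 482, 1086 and 225, and CD44, a receptor for hyaluronan, at 571 against 25.1 and 14.02, 12.5 and 10.5. SERPINH1, the collagen chaperone, was at 219.5 against 27.4 and 197, 72.1 and 21.4. These genes were chosen after their values were seen, and 1 array has no replicate check.

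On morula 3, where DCN and LUM were high, CRTAP and FKBP10, which help collagen chains fold, were at 3070.5 and 499.6, against 285 and 315 and against 52.1 and 34.8 on morula 1 and 2. The steroid transport protein gene STAR was at 907 there, against 78.02 and 94.98. The 16 cumulus and granulosa markers, STAR included, summed to 17571 there, against 15999 and 14730. P4HA2, another prolyl hydroxylase subunit, went the other way from CRTAP and FKBP10, at 247 against 2036 and 1118. The 19 measured genes of collagen and matrix processing, which include CRTAP, FKBP10 and P4HA2, summed to 7860 on morula 3, against 19224 and 12559. These genes too were chosen after their values were seen.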
